A study of Mus musculus with 14 samples.

Results

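63 genes were lower in every library of Clu KO oHSCs (old hematopoietic stem cells edited with guide RNA against Clu) than in every control library, by at least a log2 ratio of -1. They were chosen from the 583 genes of the deposited Clu KO table. A gene was taken when its highest sgClu value lay below its lowest sgCtrl value, its sgCtrl mean was at least 2 FPKM, the log2 ratio of the group means was at most -1, and the gene was not in the table of the age comparison. 93 genes of the 583 were past these value limits, 78 of them were not in the age table, and 15 of those, early response and inflammatory genes such as Fosb and Nr4a1, were left out by name. What these values chose is given here as a description, without tests, and it is no independent evidence that Clu KO lowered the genes.

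The donors of the HSCs were mice of both sexes, aged 24 months, with Cas9 knocked in at Rosa26, so both groups carried Cas9. The cells were infected with mCherry+ lentivirus against Clu (sgClu, 4 libraries), for which the study's methods describe packaging 3 guide plasmids per gene together, or with control guide RNA (sgCtrl, 3 libraries), sorted for mCherry and transplanted into lethally irradiated 2-month-old CD45.1 recipients, and oHSCs were sorted from recipient bone marrow 4 months later. The study describes its sequencing replicates as biological, but the sources used here do not say that each library came from a separate recipient, so p-values measure the spread between these libraries. A group is a pool of infected cells and not 1 clone, and the degree of editing cannot be read from these values because Clu is not among the genes of this table. In such bulk samples, fewer cells of a type and less RNA per cell cannot be told apart.

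Values are taken as FPKM, fragments counted per kilobase of a transcript and per fixed number of fragments in the library, a unit that allows levels of different genes to be compared per length. The 583 genes added up to 17005 to 18573 FPKM per sgCtrl library and to 10841 to 12502 FPKM per sgClu library. These sums over selected genes are not depths, which are unknown. All sgClu libraries were below all sgCtrl libraries for 52.5% of the 583 genes, and 16% were past the value limits of the rule, so being lower was common among the genes of this table. By limma, 292 genes (50.1%) were lower and 90 (15.4%) were higher past the limits used for calls (unadjusted p under 0.05, log2 fold change beyond 0.5 in either direction). Scaling the libraries by the median of ratios over the listed genes turned this split into 59 lower and 130 higher, and moved the median log2 fold change of all genes, -0.52, up by 0.44. Of 15 HSC markers, 2 (Procr and Fgd5) were among the listed genes, too few to check the label of the cells.

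Clusterin, the product of Clu, is a chaperone that is secreted or kept in the cytosol. By western blot the study reports more of the uncleaved cytosolic form and less of the secreted form in old than in young HSCs. Some of the genes encode proteins that cells make after a stimulus and that limit the response to it, such as the ubiquitin-editing enzyme Tnfaip3 and the atypical IkB protein Nfkbid in NF-kB signalling, or Smad7 and Skil in TGF-beta signalling. Transcripts of such inducible genes are often short-lived, and AU-rich words in the 3′ UTR are a known mark of rapid decay. NF-kB, AP-1 and CREB family factors bind short words in promoters and switch on many inducible genes.

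The promoters of 6 of the genes are shown because they hold words of these factor families and cover genes of high level, genes of NF-kB signalling and, in Arl5b, a gene of vesicle traffic that holds both a CRE and an NF-kB motif. Each is the stretch of 250 bases before a RefSeq start on GRCm38.p6 (mm10), read 5′ to 3′ on the strand of the gene, and capitals mark matches to an AP-1 word (TGANTCA), a CRE (TGACGTCA) or the NF-kB motif on either strand.
Tnfaip3, chr10:19015411-19015660, minus strand: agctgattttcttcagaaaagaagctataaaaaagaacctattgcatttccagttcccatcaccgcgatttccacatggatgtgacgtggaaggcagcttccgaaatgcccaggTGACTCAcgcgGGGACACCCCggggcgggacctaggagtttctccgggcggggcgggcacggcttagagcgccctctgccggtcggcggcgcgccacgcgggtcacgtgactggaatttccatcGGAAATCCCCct
Nfkbid, chr7:30422156-30422405, plus strand: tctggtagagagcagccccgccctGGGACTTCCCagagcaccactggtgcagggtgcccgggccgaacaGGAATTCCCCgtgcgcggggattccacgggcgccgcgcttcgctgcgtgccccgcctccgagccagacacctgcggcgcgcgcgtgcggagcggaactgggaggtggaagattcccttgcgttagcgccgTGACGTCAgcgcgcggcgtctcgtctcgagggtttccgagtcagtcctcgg
Cxcl2, chr5:90903649-90903898, plus strand: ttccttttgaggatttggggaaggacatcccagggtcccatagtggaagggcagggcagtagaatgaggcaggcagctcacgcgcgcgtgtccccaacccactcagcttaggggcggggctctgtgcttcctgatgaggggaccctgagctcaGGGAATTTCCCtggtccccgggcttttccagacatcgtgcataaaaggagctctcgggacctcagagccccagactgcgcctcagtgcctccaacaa
Arl5b, chr2:15055070-15055319, plus strand: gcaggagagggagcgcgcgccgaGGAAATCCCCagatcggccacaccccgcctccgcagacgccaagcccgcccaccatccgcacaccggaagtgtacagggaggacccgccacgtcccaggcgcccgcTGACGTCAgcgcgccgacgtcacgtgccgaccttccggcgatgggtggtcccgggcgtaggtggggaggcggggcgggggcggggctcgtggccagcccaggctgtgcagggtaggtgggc
Ctla2a, chr13:60936626-60936875, minus strand: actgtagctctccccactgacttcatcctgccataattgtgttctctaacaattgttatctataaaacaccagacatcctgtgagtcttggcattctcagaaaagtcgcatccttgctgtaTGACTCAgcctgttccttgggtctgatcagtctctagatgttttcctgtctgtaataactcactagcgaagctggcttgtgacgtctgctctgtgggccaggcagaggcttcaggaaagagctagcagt
Ctla2b, chr13:60897448-60897697, minus strand: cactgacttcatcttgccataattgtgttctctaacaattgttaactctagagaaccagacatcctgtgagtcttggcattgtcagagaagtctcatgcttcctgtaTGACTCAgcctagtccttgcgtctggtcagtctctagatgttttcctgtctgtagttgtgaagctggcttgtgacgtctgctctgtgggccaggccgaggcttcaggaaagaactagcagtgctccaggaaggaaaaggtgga
With -1 as the base before the start, Tnfaip3 held an AP-1 word at -136 and NF-kB motifs at -125 and -12. Nfkbid held NF-kB motifs at -226 and -181 and a CRE at -51. In Cxcl2 the motif matched at -97 and -96, which overlap because it was read on both strands. Ctla2a and Ctla2b are neighbouring paralogs, and 37.2% of the 12-base words of the Ctla2b stretch were also in that of Ctla2a, with an AP-1 word at -143 and -129. RefSeq promoters were found for 40 of the 63 genes (63.5%). A comparison of motif shares with other genes is void at that coverage, so the counts are a description. The units also differ. A gene was counted when any of its promoters held the motif, while the other shares are per promoter. The NF-kB motif was in 6 of the 40 (Arl5b, Ccrl2, Cxcl2, Neurl3, Nfkbid and Tnfaip3) and in 3.90% of all promoters and 5% of those of the other genes of the table, the CRE in 4 (Arl5b, Arnt, Nfkbid and Slc25a25) and in 1.55% and 3.04%, and the AP-1 word in 4 (Ctla2a, Ctla2b, Rsad2 and Tnfaip3) and in 6.75% and 7.39%. The E-box CACGTG was in 9 of the 40, in 6.02% of all promoters and in 10% of those of the other genes of the table. The GC box GGGCGG was in 25 of the 40, in 32.7% of all promoters and in 58.5% of those of the other genes of the table. No match to the C/EBP motif or to the CArG box of SRF was found in the 40.

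AU-rich words in the 3′ UTR are a feature that the rule did not use. 50 of the 63 genes are annotated as protein coding, and all 50 have a 3′ UTR in GENCODE M21 (GRCm38), with a median length of 1532 bases. The word TATTTAT stood in the 3′ UTR of 24 of the 50 (48.0%), of 38.1% of the 452 other coding genes of the table and of 27.4% of 21022 annotated coding genes. It was close to the shares of the genes named to be left out (14 of 28) and of the other lower genes of the table (44.9%). Higher genes held the word in 22.97%. The windows below, 1 for each of 5 genes with different roles, show the word in capitals in DNA letters.
Cxcl2: atttatctatgTATTTATTTATTTATtaa
Il10: tctctccgaaaTATTTATtacctctgata
Gdf15: ttcaaggatgcTATTTATatttgtattta
Arl5b: ccggcatgtatTATTTATTTATccagcac
Cd69: tctagagttacTATTTATtgccgaatgac
Cxcl2 held 7 such words, Il10 and Arl5b 4 each, Gdf15 3 and Cd69 1. Long 3′ UTRs hold a given word more often, so the shares were also read by length. For 3′ UTRs of up to 1000 bases the word was in 7 of 18 of the genes described here (38.9%), in 13.9% of the other genes of the table and in 10.7% of all coding genes. For 3′ UTRs over 1000 and up to 2000 bases the shares were 60.0%, 45.2% and 33.6%, and over 2000 bases they were 47.1%, 59.5% and 56.5%. The order of the 3 sets thus turned with length, and with 15 to 18 of the genes in each class these shares carry wide counting error.

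**Figure D1:**
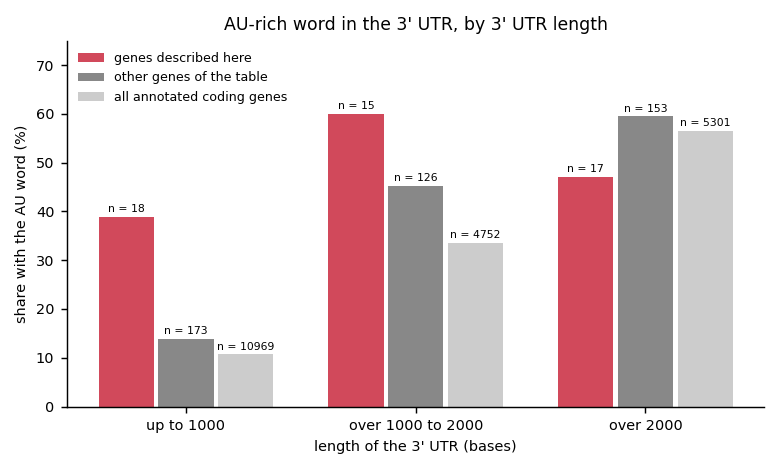
Share of coding genes (y axis, percent) whose 3′ UTR holds the word TATTTAT, by 3′ UTR length in bases (x axis), for the genes described here (red), the other genes of the Clu KO table (dark grey) and all annotated coding genes (light grey), with the number of genes over each bar. The red bar is the tallest of the 3 up to 2000 bases (38.9% and 60.0%) and the shortest above (47.1%).

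The levels of the 63 genes ranged from an sgCtrl mean of 2.01 FPKM (Gm43430) to 3899 FPKM (Ctla2a), with a median of 4.95 FPKM. 16 genes had an sgCtrl mean of at least 10 FPKM, 32 were under 5 FPKM, and 11 had an sgClu mean under 1 FPKM. The log2 ratios of the means lay between -2.80 and -1.004 with a median of -1.30, beside -0.75 over the 576 genes of the table with values in both groups. 23 genes were at or below -1.5 and 7 at or below -2. In 7 genes the lowest sgCtrl library was at least 2 times the highest sgClu library, and in 6 genes it was less than 1.2 times. The ratios were closest to -1 for Lysmd3 (-1.004), Nkx2-3 (-1.01) and Ccrl2 (-1.01), and just outside the limit lay Cables1 (-0.9994), Csrnp1 (-0.996) and Aff4 (-0.99). At the level limit of 2 FPKM the nearest members were Gm43430 (2.01 FPKM), Nhlrc3 (2.11) and Abcg3 (2.22), and the nearest genes under it were Tmtc3 (1.95), C3 (1.95) and F3 (1.76).

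**Figure D2:**
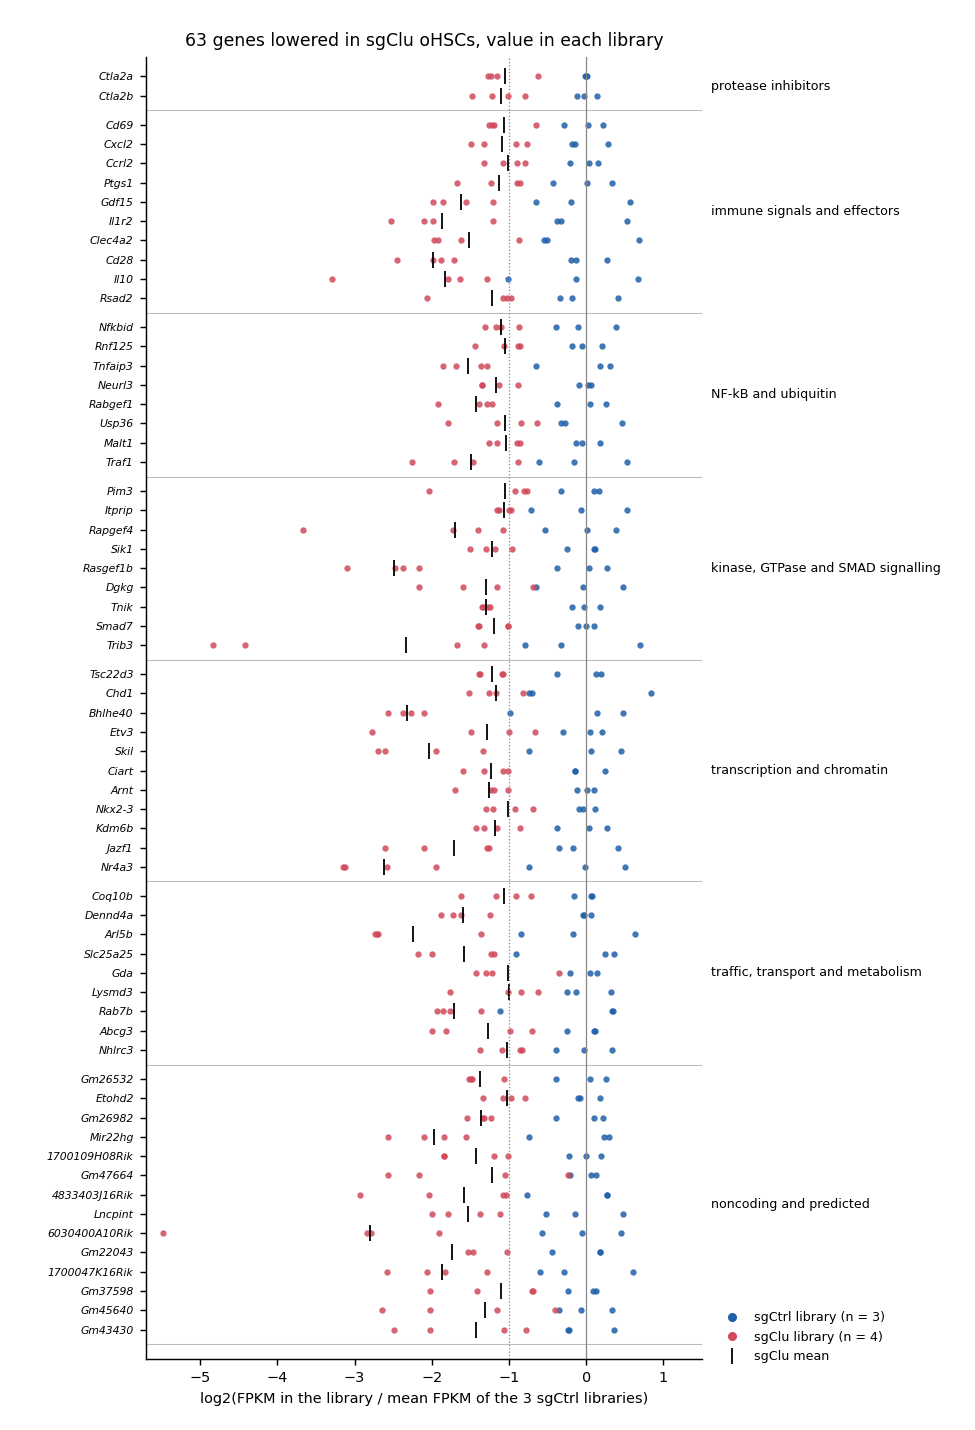
Each row is 1 of the 63 genes, grouped by role, and each point is 1 library, placed by the log2 of its FPKM over the mean of the 3 sgCtrl libraries (x axis), with sgCtrl in blue, sgClu in red and the sgClu mean as a black tick. No row has a red point to the right of a blue one, because the rule chose such genes, and the sgClu value of 0 of Gm22043 is not drawn. The dotted line is the limit of -1.

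The protease inhibitor Ctla2a was by far the most abundant of the genes. Its product resembles the propeptide of cathepsin L and inhibits cysteine proteases of that family. Ctla2a stood at 3907, 3933 and 3856 FPKM in sgCtrl libraries 1 to 3 and at 1653, 1745, 2533 and 1617 FPKM in sgClu libraries 1 to 4. The sgCtrl libraries lay close together (3899 ± 39.1 FPKM, SD, n = 3), and among the sgClu libraries (1887 ± 434 FPKM, n = 4) library 3 was the highest. The sgClu mean was 48.4% of the sgCtrl mean. Ctla2a alone made up 21.04% to 22.7% of the summed values of the table in the sgCtrl libraries and 13.6% to 20.3% in the sgClu libraries, and 78.6% to 83.9% of the sum over the 63 genes. Ctla2b, its neighbour on chromosome 13, was read at 94.5, 89.0 and 106 FPKM in the sgCtrl libraries and at 34.7, 47.8, 55.5 and 41.4 FPKM in the sgClu libraries. Library 3 was the highest of the sgClu libraries for both paralogs. The 2 values are not independent of shared reads: 14.2% of the 50-base words of the longest Ctla2b transcript also occur in Ctla2a, and 74.0% occur in some other gene, mostly readthrough genes annotated over both. For Ctla2a that share is 30.1%, so the split of reads between the 2 genes is uncertain.

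Of the 10 genes for immune signals and effectors, Cd69 was the most abundant. Cd69 is a C-type lectin receptor that lymphocytes show early after activation. Its values were 332, 292 and 235 FPKM in the sgCtrl libraries and 123, 119.8, 182 and 125 FPKM in the sgClu libraries, where library 3 was again the highest. Cxcl2, a chemokine for neutrophils, was at 44.5, 33.0 and 32.2 FPKM against 14.6, 13.0, 19.5 and 21.4 FPKM. Ccrl2, an atypical receptor that binds chemerin, was at 23.9, 25.95 and 20.04 FPKM against 11.1, 12.6, 13.4 and 9.30 FPKM. The means of these 3 genes in sgClu were 47.9%, 46.9% and 49.7% of those in sgCtrl, near the limit of the rule. The other 7 genes had sgCtrl means under 10 FPKM. Ptgs1, the constitutive cyclooxygenase COX-1, was the highest of them at 11.3, 6.64 and 9.02 FPKM in sgCtrl and 3.84, 4.81, 2.80 and 4.94 FPKM in sgClu. Gdf15, a stress-induced cytokine of the TGF-beta family, had a log2 ratio of -1.62. Lower ratios were found for Cd28, the costimulatory receptor of T cells (-1.98), Il1r2, the decoy receptor for interleukin 1 (-1.87), and Il10, an anti-inflammatory cytokine (-1.83). Clec4a2, a C-type lectin of myeloid cells, was at -1.52 and Rsad2, the antiviral protein viperin, at -1.22. The spread between sgCtrl libraries was wide for Il10 (1.48 to 4.73 FPKM) and Clec4a2 (2.74 to 6.43 FPKM), and for both genes and Rsad2 library 2 was the highest of the 3.

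Some of these genes are used as markers of other blood cells, and the values of the other listed markers of those cells are given beside them. For T cells 3 of 12 markers were listed (Cd28, Ctla4 and Txk), and Ctla4 and Txk together came to 1.29 to 2.42 FPKM in sgCtrl and 0.178 to 0.554 FPKM in sgClu. For neutrophils 3 of 11 were listed, and S100a8 and S100a9 together came to 16.1 to 177 FPKM in sgCtrl and 8.42 to 51.8 FPKM in sgClu, groups that overlap. For monocytes and macrophages 6 of 12 were listed. Without Clec4a2 they summed to 249.8 to 340.5 FPKM in sgCtrl and 111 to 181 FPKM in sgClu, mostly from Ly6c2. Ly6c2 was itself past the value limits of the rule and was left out by name. The difference between these sums is therefore no independent evidence. C1qb, a macrophage marker, was listed at 0 in all 3 sgCtrl libraries and at 0, 1.39, 0.355 and 2.02 FPKM in the sgClu libraries. The groups overlapped for Cd86 (1.98 to 3.70 FPKM in sgCtrl and 1.201 to 2.24 FPKM in sgClu) and Cd14 (7.36 to 19.96 FPKM and 1.11 to 7.39 FPKM). They did not overlap for Slamf8, which was low in level (0.396 to 1.06 FPKM in sgCtrl and 0 to 0.307 FPKM in sgClu). Of 8 mast cell, basophil and eosinophil markers, Tpsb2 was listed, between 0 and 34.7 FPKM in sgCtrl and at 0 in all sgClu libraries. Of 8 megakaryocyte markers, Plek was listed, at 21.3 to 24.2 FPKM in sgCtrl and 9.67 to 14.6 FPKM in sgClu. None of the B cell (7), erythroid (10) or stromal and endothelial (8) markers was among the listed genes, which says nothing of their level. Procr and Fgd5 together came to 13.2 to 23.2 FPKM in sgCtrl and 5.14 to 12.2 FPKM in sgClu. For each of these genes alone the groups overlapped. Procr was at 10.8 to 22.5 FPKM in sgCtrl and 4.95 to 11.7 FPKM in sgClu. Fgd5 was at 0.312 to 2.47 FPKM and 0.193 to 0.519 FPKM. The part of such cells in the values of Cd28, Il1r2 and Clec4a2 was not tested.

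The 8 genes of NF-kB signalling and ubiquitin transfer had log2 ratios between -1.53 and -1.04, the narrowest range of the larger groups of roles. Nfkbid, an atypical IkB protein of the nucleus, was at 47.1, 27.2 and 33.3 FPKM in the sgCtrl libraries and at 15.9, 19.6, 14.4 and 16.6 FPKM in the sgClu libraries. Tnfaip3, the ubiquitin-editing enzyme A20 that dampens NF-kB signalling, was at 18.4, 10.3 and 20.1 FPKM against 5.03, 4.50, 6.69 and 6.33 FPKM. In both genes the lowest sgCtrl library was library 2, and it was still 1.39 and 1.54 times the highest sgClu library. Rnf125, a ubiquitin ligase that acts on RIG-I, was at 34.5, 26.3 and 28.7 FPKM against 16.1, 16.4, 14.2 and 10.985 FPKM. 15.6% of its words occur in other genes, so its value is uncertain. Neurl3, a RING ubiquitin ligase, had the tightest sgCtrl libraries of the group, 12.9, 11.5 and 12.5 FPKM, against 4.83, 4.83, 5.64 and 6.66 FPKM. Rabgef1, an exchange factor for Rab5 that binds ubiquitin, was at 12.8, 8.23 and 11.1 FPKM against 2.83, 4.60, 4.08 and 4.38 FPKM. Below 10 FPKM were Usp36, a nucleolar deubiquitinase (5.54, 5.35 and 9.22 FPKM against 1.95, 4.29, 3.01 and 3.74 FPKM), Malt1, the paracaspase of the CARD-BCL10-MALT1 complex (log2 ratio -1.04), and Traf1, an adaptor of TNF receptors (-1.49). sgCtrl library 2 was the lowest of its group for 7 of these 8 genes.

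**Figure D3:**
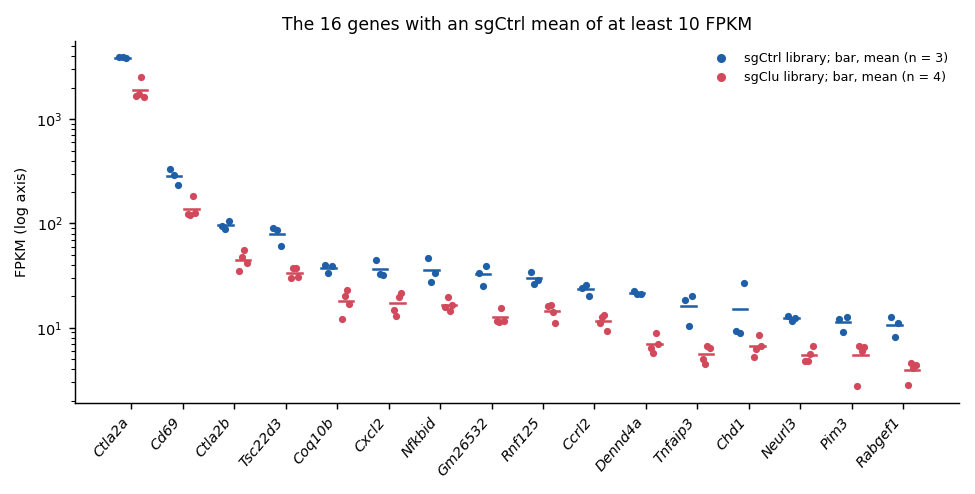
FPKM in each library (y axis, log scale) of the 16 genes with an sgCtrl mean of at least 10 FPKM, sgCtrl in blue and sgClu in red, with bars at the group means. Ctla2a lies more than 10 times above Cd69, the next gene, and 1 sgCtrl library of Chd1 (26.8 FPKM) stands above the other two (9.22 and 8.99 FPKM).

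The 9 genes of kinase, GTPase and SMAD signalling held some of the lowest ratios. Pim3, a serine/threonine kinase, was the only one of them over 10 FPKM, at 12.2, 9.08 and 12.8 FPKM in sgCtrl and 2.76, 6.64, 5.999 and 6.46 FPKM in sgClu. Library 1 was the lowest of the sgClu libraries for this gene. Rasgef1b, an inducible exchange factor for Rap2, had the widest gap of all 63 genes. It was at 4.91, 3.70 and 5.80 FPKM in sgCtrl and 0.925, 0.559, 0.860 and 1.07 FPKM in sgClu, so its lowest sgCtrl library was 3.47 times its highest sgClu library. Trib3, a pseudokinase induced under integrated stress, was at 4.84, 2.38 and 1.72 FPKM against 0.935, 0.104, 0.139 and 1.19 FPKM, a log2 ratio of -2.33 with a wide spread in both groups. Tnik, a kinase of the Wnt pathway, lay at 1.58 to 1.70 FPKM in sgClu and 3.55 to 4.56 FPKM in sgCtrl, the smallest relative spread of any of the 63 genes in the sgClu group (3.48% of the mean). Smad7, which blocks TGF-beta receptors, was at 4.19, 3.65 and 3.90 FPKM against 1.48, 1.95, 1.501 and 1.94 FPKM. Itprip, which binds inositol trisphosphate receptors, was at 6.27, 4.02 and 9.45 FPKM against 3.30, 3.35, 3.02 and 2.95 FPKM, and its log2 ratio of -1.06 went to -0.71 without sgCtrl library 3. Rapgef4, the cAMP-gated exchange factor EPAC2 (-1.70), Dgkg, a diacylglycerol kinase (-1.30), and Sik1, a salt-inducible kinase that restrains CREB coactivators (-1.22), complete the group.

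Tsc22d3 led the 11 genes of transcription and chromatin. It encodes the glucocorticoid-induced leucine zipper GILZ and was at 90.3, 85.9 and 60.9 FPKM in sgCtrl and 30.2, 37.3, 37.2 and 30.6 FPKM in sgClu, 42.8% of the sgCtrl mean. Chd1, a chromatin remodeller of active genes, was at 9.22, 8.99 and 26.8 FPKM against 5.26, 6.27, 8.49 and 6.68 FPKM. Its log2 ratio of -1.17 rests on sgCtrl library 3 and was -0.45 without it. The ratios of 3 genes of this group were under -2. Nr4a3, an orphan nuclear receptor, had the lowest ratio of the group (-2.62), at 3.12, 1.89 and 4.48 FPKM against 0.362, 0.358, 0.527 and 0.819 FPKM. Bhlhe40, a basic helix-loop-helix repressor that also acts in the clock, was at 12.8, 4.65 and 10.1 FPKM against 1.55, 1.77, 1.91 and 2.14 FPKM (-2.32). Skil, which encodes the SMAD corepressor SnoN, was at 7.20, 4.14 and 9.41 FPKM against 1.06, 1.79, 2.74 and 1.13 FPKM (-2.04). In each of these 3 genes sgCtrl library 2 was the lowest of its group. The remaining genes were the zinc finger gene Jazf1 (-1.71), the ETS repressor Etv3 (-1.29), the HIF partner Arnt (-1.26), the clock repressor Ciart (-1.24), the histone H3K27 demethylase Kdm6b (-1.18) and the homeobox gene Nkx2-3 (-1.01). Ciart shares 15.1% of its words with other genes.

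Among the 9 genes of traffic, transport and metabolism, Coq10b and Dennd4a were above 10 FPKM. Coq10b, a mitochondrial protein that binds coenzyme Q, was at 39.8, 33.8 and 39.4 FPKM against 12.2, 20.04, 23.005 and 16.8 FPKM. Dennd4a, an exchange factor for Rab10, had close sgCtrl values of 22.4, 20.9 and 20.8 FPKM and sgClu values of 6.45, 5.78, 8.99 and 6.96 FPKM. Its lowest sgCtrl library was 2.32 times the highest sgClu library, and its log2 ratio of -1.60 was the lowest of the 16 genes above 10 FPKM. Arl5b, an Arf-like GTPase of the Golgi, was at 3.25, 5.18 and 9.08 FPKM against 0.891, 0.872, 0.898 and 2.27 FPKM, with library 4 apart from the other sgClu libraries. Slc25a25, a mitochondrial carrier of ATP-Mg and phosphate, had a ratio of -1.58, the late endosomal GTPase gene Rab7b -1.71 and the ABC transporter gene Abcg3 -1.27. Nhlrc3 (-1.02), the guanine deaminase gene Gda (-1.01) and Lysmd3 (-1.004) were nearest to the limit. In Gda sgClu library 1 (2.46 FPKM) came close to the lowest sgCtrl library (2.72 FPKM).

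The 14 noncoding and predicted genes had a median sgCtrl mean of 4.66 FPKM, beside 4.95 FPKM over all 63 genes. Each of the 14 lies over or inside another gene, so their reads cannot all be assigned to them with certainty. The kit does not mark the strand of a transcript. In GENCODE M21, 6 overlap exons of a gene on the opposite strand, 2 overlap exons on the same strand, and 6 lie in an intron of a gene on the same strand without touching an exon. Of the 49 other members, 11 overlap an exon of another gene. Gm26532 was the most abundant, at 33.7, 24.9 and 39.0 FPKM in sgCtrl and 11.6, 11.4, 15.5 and 11.6 FPKM in sgClu. It spans chr8:84208920-84209609 on the plus strand and begins at the end of the miR-24-2 hairpin (chr8:84208815-84208921). Mir22hg, the host gene of miR-22, was at 6.58, 3.20 and 6.29 FPKM against 1.24, 1.82, 1.498 and 0.903 FPKM, a log2 ratio of -1.97. It spans chr11:75461539-75466676 and holds the hairpin at chr11:75463716-75463810, plus strand, whose mature sequences are shown with the seed (bases 2 to 8) in capitals, followed by those of the miR-24-2 hairpin.
miR-22-5p: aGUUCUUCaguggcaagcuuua
miR-22-3p: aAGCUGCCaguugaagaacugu
miR-24-2-5p: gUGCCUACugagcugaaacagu
miR-24-3p: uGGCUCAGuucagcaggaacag
The 4 seeds differ from each other. The values are of long RNA, and mature miRNAs were not measured. Etohd2 (8.61, 8.80 and 10.5 FPKM against 4.41, 3.70, 5.35 and 4.76 FPKM) overlaps exons of Isca1 and Tut7 on the other strand. Lncpint, a long noncoding RNA induced by p53, had a ratio of -1.53 and overlaps an antisense gene.

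6030400A10Rik had the lowest ratio of all 63 genes, -2.80, at 3.48, 2.43 and 4.94 FPKM in sgCtrl and 0.507, 0.960, 0.522 and 0.0810 FPKM in sgClu. It lies in an intron of Cpeb2, which was itself listed at 0.793 FPKM in sgCtrl and 0.417 FPKM in sgClu (limma log2 fold change -0.34 ± 0.17 SE on the log2(FPKM + 1) scale, adjusted p = 0.0872). Gm45640 (-1.32) lies in an intron of Chd9, listed at 30.6 FPKM in sgCtrl and 27.4 FPKM in sgClu (limma -0.16 ± 0.15 SE, adjusted p = 0.339). Neither host passed the limits. On the scale used for the 63 genes, the log2 ratio of means, Cpeb2 was at -0.93 and Chd9 at -0.16. Gm47664 lies in an intron of Elmo1, Gm43430 in Nfkb1 and the small nuclear RNA gene Gm22043 in Larp1b, and none of these 3 hosts was among the listed genes. Gm22043 was listed at 0 in sgClu library 3. In Gm47664 the sgClu values ran from 0.815 to 4.08 FPKM, and the highest nearly reached the lowest sgCtrl value of 4.17 FPKM.

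The spread within groups was a little wider for these genes than for the other genes of at least 2 FPKM. The SD was 22.0% of the mean in sgCtrl and 25.1% in sgClu at the median of the 63 genes, against 17.4% and 19.0% for those genes. Over all other genes of the table it was 21.3% and 23.9%, close to the 63 genes. These sets were not matched for level. In 18 genes the highest sgCtrl library was at least 2 times the lowest. sgCtrl library 2 was the lowest of its group for 35 of the 63 genes (55.6%), against 39.6% of the other genes of the table, and its median log2 value relative to the group mean was -0.19. Genes of immune signals and effectors went the other way, with library 3 the lowest for 7 of 10. Over all 63 genes the sgClu libraries showed no such order, as each was the lowest for 12 to 18 of them. By role they differed more. Library 1 was the lowest for 6 of 11 genes of transcription and chromatin and 4 of 8 of NF-kB and ubiquitin. Library 3 was the lowest for 5 of 10 genes of immune signals and effectors. The genes of a library share its errors, so they are not separate measurements of the group difference.

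The size of the difference depended on the scale of the libraries. The common scale of the deposited values is not given in the sources used here. On scales set to the listed genes, most of which were lower in sgClu, all 63 ratios stayed below 0 but moved toward it, to a median of -0.66 (median of ratios) and -0.65 (TMM). 16 genes kept a ratio of at most -1 on both scales. 10 genes met the whole rule on both, namely 6030400A10Rik, Nr4a3, Rasgef1b, Bhlhe40, Skil, Cd28, Mir22hg, Il1r2, 1700047K16Rik and Jazf1. Ctla2a went from -1.05 to -0.42 and Cd69 from -1.06 to -0.43 under the median of ratios.

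**Figure D4:**
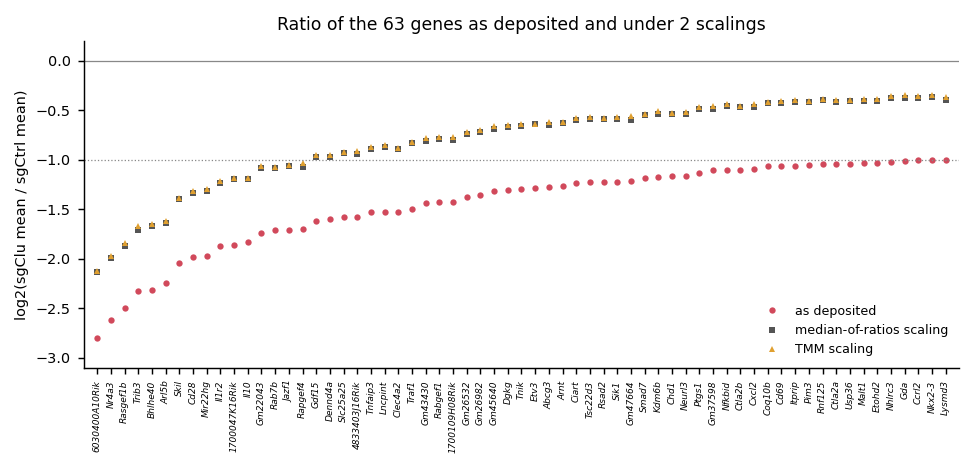
Log2 ratio of the sgClu mean over the sgCtrl mean (y axis) for each of the 63 genes (x axis, ordered by the ratio as deposited), as deposited (red), under median-of-ratios scaling (grey) and under TMM scaling (yellow) over the listed genes. Every point lies under 0, and on the scaled values 16 genes lie under the dotted line at -1.

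**Figure D5:**
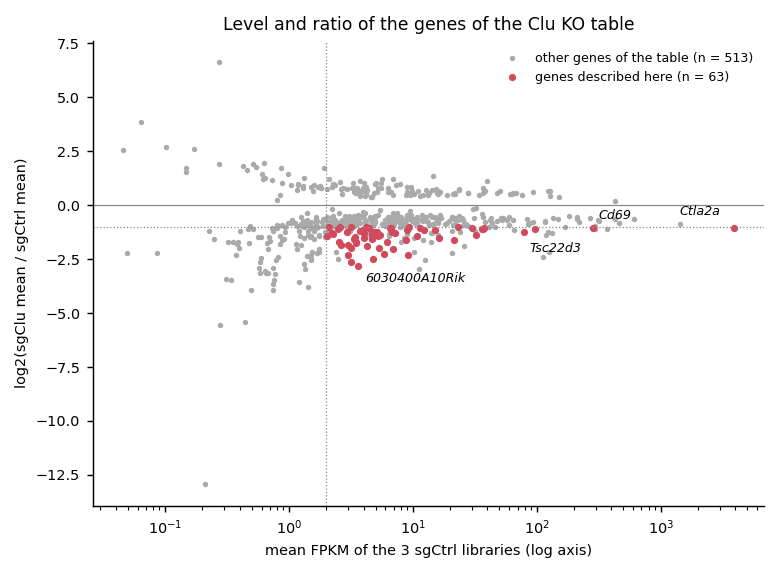
Mean FPKM of the 3 sgCtrl libraries (x axis, log scale) against the log2 ratio of the sgClu mean over the sgCtrl mean (y axis) for the 576 genes with values in both groups, with the 63 genes in red. The dotted lines are the limits of the rule, 2 FPKM and -1, and genes with lower levels spread more widely around the band of lowered genes.

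Genes of the same pathways that the rule did not take were read from 13 lists written with earlier results of these data known, so their counts are a description. The lists name 271 genes, 131 of them were in the table, and 42 of those are among the 63. Of the 89 others, 60 (67.4%) were lower past the limits and none was higher, beside 50.1% and 15.4% of all 583 genes. With adjusted p-values 57 were lower and none was higher. Id3, Id1, Cish and Ddit3, named below, were themselves past the value limits of the rule. They are not members only because they are in the age table, so their fold changes and p-values are no independent evidence. Inducible transcription regulators were lower for 15 of 17, among them the differentiation inhibitors Id3 (log2 fold change -1.30 ± 0.30 SE, limma adjusted p = 0.0105) and Id1 (-1.12 ± 0.19, adjusted p = 0.00420), the Notch target Hes1 (-0.98 ± 0.18, adjusted p = 0.00480) and Cebpb (-0.86 ± 0.23, adjusted p = 0.0173). Kinase signalling genes were lower for 10 of 12, led by the cytokine feedback inhibitor Cish (-1.14 ± 0.13, adjusted p = 0.00219) and Irs2 (-0.98 ± 0.14, adjusted p = 0.00279). Cytokines, chemokines and prostaglandin enzymes were lower for 8 of 10, but the groups of Ccl5 (-1.49 ± 0.49) overlapped and its call was lost without sgCtrl library 3. Apoptosis and integrated stress genes were lower for 8 of 9, led by Ddit3 (-1.26 ± 0.18), which encodes CHOP. NF-kB feedback genes were lower for 4 of 5 and the long noncoding genes Malat1, Mir155hg and Neat1 for 3 of 3. Vesicle traffic (6 of 11), transporters and metabolic enzymes (5 of 10), mRNA decay (3 of 8) and Notch and Wnt genes (1 of 4) were near or under the share of all genes. The 2 listed TGF-beta feedback genes beside Skil and Smad7, Bambi and Smurf2, did not pass, at -0.49 ± 0.18 and -0.38 ± 0.18. Klf9, the 1 other clock output gene, was lower, and Oas3, the 1 other interferon-stimulated gene, did not pass (-0.34 ± 0.14). The calls of 38 of the 60 were made whichever library was left out. Under median-of-ratios scaling 10 of the 60 calls of a lower value were left, and 6 of the 89 genes had a fold change above 0. Of the genes named here, Id3, Id1, Cish, Irs2 and Ddit3 kept their calls on that scale. Hes1 went to -0.37 and Cebpb to -0.23, and both lost theirs, as did Ccl5, Klf9, Malat1, Mir155hg and Neat1.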

How the data were processed

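Aged HSCs carrying sgClu (4 libraries) or sgCtrl (3 libraries) were profiled by SMART-Seq v4 and Nextera XT RNA-seq. The authors trimmed reads with TrimGalore (0.6.7), aligned them to mm10 with Hisat2 (2.1.0), counted them with FeatureCounts (2.0.1) and called genes with DESeq2. The annotation and the step from counts to values are not given in the sources used here. The deposited values were taken as FPKM, normalized by the authors, although the headers name no unit and TPM cannot be told apart. The table is a selection of genes, most of them different between these groups, and how they were chosen is not given. It is not simply the genes called here (2 are at 0 in every library), and p-values within it are not independent evidence. No step left by whole reads was found (at most 5.56% of ratios of values under 1 FPKM fell within a window of 1%).

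Groups come from the sample titles. The members, the roles and the lists were chosen with earlier results of these data known. Members were found from the group means and ranges, and their log2 ratio is that of mean FPKM. Genes with an sgCtrl mean of at least 10 FPKM are given in every library, the others by role, with further values where a ratio or spread stood out, and non-members by their list and the size of their change. limma (3.58.1, R 4.3.3) was fitted to log2(FPKM + 1) of all 583 genes, two-sided, with Benjamini-Hochberg adjustment. A gene was called at an unadjusted p under 0.05 and an absolute log2 fold change over 0.5, the limits of the study's methods. The design had allowed for counts, which were not present. Tested on simulated data with 200 of 583 genes lowered by a log2 change of 1 or 2, limma called 189 and 199. It also called 12 and 8 of the 383 unchanged genes. The simulation did not copy the selection of the genes of this table. Alternatives were 2 scalings over the listed genes (TMM in own code), a pseudocount of 0.1, a filter, a mean-variance trend, a replicate block, other limits and each library left out. Positions and transcripts came from GENCODE M21 (all 63 members matched by symbol), promoters and miRNAs from RefSeq (GRCm38.p6). All 14 value columns were read, those of the age comparison for gene names alone. Words of 50 bases marked genes with over 10% of shared sequence as uncertain. Some items are not reported here.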

Additional observations from a re-analysis of the deposited data

Results flagged for a closer look

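In a group of 4 libraries a value was picked out when its gap to the nearest other exceeded the 95% critical value of Dixon's test. This was applied to the sgClu libraries of the 63 genes and picked out 7. The usual chance rate of about 1 in 20 does not apply here. The rule limited the highest sgClu value of each gene, and all 63 genes share the same 4 libraries. The 7 values are therefore a description. Library 3 was far above the others for Ctla2a (2533 FPKM, next 1745), Cd69 (182 FPKM, next 125) and Gm26532 (15.5 FPKM, next 11.6), and far below them for Rsad2 (0.695 FPKM, next 1.38). Library 1 was far below the others for Pim3 (2.76 FPKM, next 5.999) and far above them for Gda (2.46 FPKM, next 1.35). Library 4 was far above the others for Arl5b (2.27 FPKM, next 0.898). The sgCtrl group of 3 was not tested.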

How the results depend on the processing

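The number of genes the rule found was 11 under median-of-ratios and 10 under TMM scaling, 31 with a level limit of 5 FPKM, 190 with a ratio limit of -0.5 and 23 with -1.5, and 59 to 82 with 1 library left out. Of the 63, 53 to 59 were found again whichever library was left out, and 23 had a ratio above -1 in at least 1 such setting. The median log2 ratio was -0.66 and -0.65 under the 2 scalings, -0.84 and -1.83 at ratio limits of -0.5 and -1.5, and -1.34 to -1.26 with 1 library left out. No ratio of a member changed sign in 630 values under 10 settings each. The rule had put every sgClu value of a member below every sgCtrl value. Leaving out a library or adding a pseudocount to the means could therefore not change a sign, and only the 2 scalings could. In the whole table, 59 and 58 genes were lower under the 2 scalings and 130 were higher under both, and 10 and 9 list genes were lower. With 1 library left out, 241 to 295 genes were lower, 69 to 98 were higher and 46 to 63 list genes were lower. Other settings moved these counts by less than 1.5 times. Same-numbered libraries correlated at -0.10, 0.07 and 0.06 in their deviations across genes, so the numbers do not pair them. A replicate block gave 270 lower genes, 65 higher genes and 55 lower list genes, and the libraries did not each correlate best with their own number. The alternatives for promoter motifs were not run because the comparison is void. Without counts, counting error is unknown, and values near 1 FPKM carry the least certainty.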

Other observations

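A further 11 genes were past the level and ratio limits and in neither the age table nor the genes left out by name, but had an sgClu library at or above the lowest sgCtrl library. S100a9 (sgCtrl mean 11.1 FPKM, sgClu mean 1.41 FPKM, log2 ratio -2.97), Hcar2 (-2.48) and S100a8 (-2.38) had the lowest ratios of them. S100a8 was at 159, 162 and 14.2 FPKM in the sgCtrl libraries and at 14.7, 50.7, 6.33 and 13.98 FPKM in the sgClu libraries, so sgCtrl library 3 lay within the sgClu range. In Hcar2 (0.821 against 0.894 FPKM) and Tnni3 (2.87 against 2.89 FPKM) the lowest sgCtrl library was just under the highest sgClu library. The others were Ccl5 (-1.62), Gm37728 (-1.36), Gm48562 (-1.24), Pou2f1 (-1.15), Tcp11 (-1.11), 4930480K15Rik (-1.10) and Itgav (-1.09).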
